A study of Saccharomyces cerevisiae with 2 samples.

Results

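The 5.8S rRNA and ITS2 lie next to each other in the yeast pre-rRNA, between ITS1 and the 25S rRNA, and both were analysed here for their contacts with Puf6. They were taken by position from the 35S table, as nucleotides 2162 to 2319 for the 5.8S and 2320 to 2551 for ITS2, which makes 390 of its 5947 nucleotides and 2 of its 5 regions. The table comes from CRAC, in which ultraviolet light links a tagged protein to the RNA it touches in living cells, the linked pair is purified under denaturing conditions, and its RNA fragments are sequenced as cDNAs. Growing Saccharomyces cerevisiae carrying Puf6 with a His6-TEV-ProtA (HTP) tag, fused to the C terminus at the genomic locus, received 12 s of irradiation once the culture had reached an OD600 near 0.5. There are 2 such libraries of 1 condition, and no library of an untagged strain was analysed here, so RNA carried through the purification without Puf6 cannot be told apart from bound RNA. The table holds 1 library, whose replicate is not named in the header, so every interval below covers counting error only and no spread between replicates can be given. For each nucleotide the table gives the hits, which are the sense cDNAs that cover it, and the deletions, which are the cDNAs that lack it. A deletion often arises where the reverse transcriptase passes a cross-linked base, so it marks a contact more closely than the hits do. Hits depend both on how much of an RNA is in the extract and on how well it cross-links, and in this table these cannot be told apart.

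The 5.8S rRNA is a small RNA of the 60S subunit that pairs with the 5′ end of the 25S rRNA. ITS2 is the spacer that separates them in the 27S pre-rRNA, and with the assembly factors Nop15, Cic1, Rlp7, Nop7 and Erb1 it forms the foot of early 60S pre-ribosomes. The endonuclease Las1 cuts ITS2 at a site named C2, which leaves the 7S pre-rRNA, made of the 5.8S and the 5′ part of ITS2. The exosome then trims the 7S from its 3′ end to the 6S pre-rRNA, other exonucleases finish the mature 5.8S, and the 3′ part of ITS2 is removed from the 25S precursor by 5′ exonucleases. Mature 5.8S rRNA contains no ITS2, so a cDNA that runs past the first nucleotide of ITS2 comes from a precursor or a released spacer fragment. At that first nucleotide this cannot be said, for the reason given with the border below.

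Both regions are transcribed from chromosome XII (R64, minus strand), the 5.8S in the rRNA gene RDN58-1 at chrXII:455414-455571 and ITS2 in ITS2-1 at chrXII:455182-455413. The second annotated copies, RDN58-2 and ITS2-2, differ from them at 0 nucleotides over the whole length, so a cDNA of either region could belong to either copy. The sequences are shown whole from the R64 genome because the deletions described below fall at particular letters of them. Capitals mark the nucleotides with at least 2 deletions.

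5.8S: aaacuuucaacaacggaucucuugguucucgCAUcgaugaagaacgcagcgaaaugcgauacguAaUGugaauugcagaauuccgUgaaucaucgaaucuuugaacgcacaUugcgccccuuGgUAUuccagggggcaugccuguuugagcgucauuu

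ITS2: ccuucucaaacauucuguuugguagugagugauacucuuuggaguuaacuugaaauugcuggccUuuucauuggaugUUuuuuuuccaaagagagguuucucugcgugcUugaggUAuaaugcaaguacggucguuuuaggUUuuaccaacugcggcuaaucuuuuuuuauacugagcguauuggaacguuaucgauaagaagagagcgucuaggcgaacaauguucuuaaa

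Of the 158 nucleotides of the 5.8S, 12 carry a capital and these stand at A, C, G and U. On ITS2, 8 nucleotides carry a capital, and 7 of them are U. Each of these 7 except U116 is in a run of at least 2 U.

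Puf6 cDNAs covered the 5.8S densely up to its 3′ end, and then a separate part of ITS2. The median was 118 hits per nucleotide on the 5.8S, with a range of 25 to 138, and 32 hits on ITS2, with a range of 2 to 108. The ratio of the medians was 3.69. The other regions of the 35S table had medians of 5 hits (18S), 5 hits (ITS1) and 11 hits (25S), although the 25S reached 2214 hits at its peak. Of all nucleotides of the 35S table, 93.7% had fewer hits than the 5.8S median and 85.0% had fewer than the ITS2 median.

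**Figure D1:**
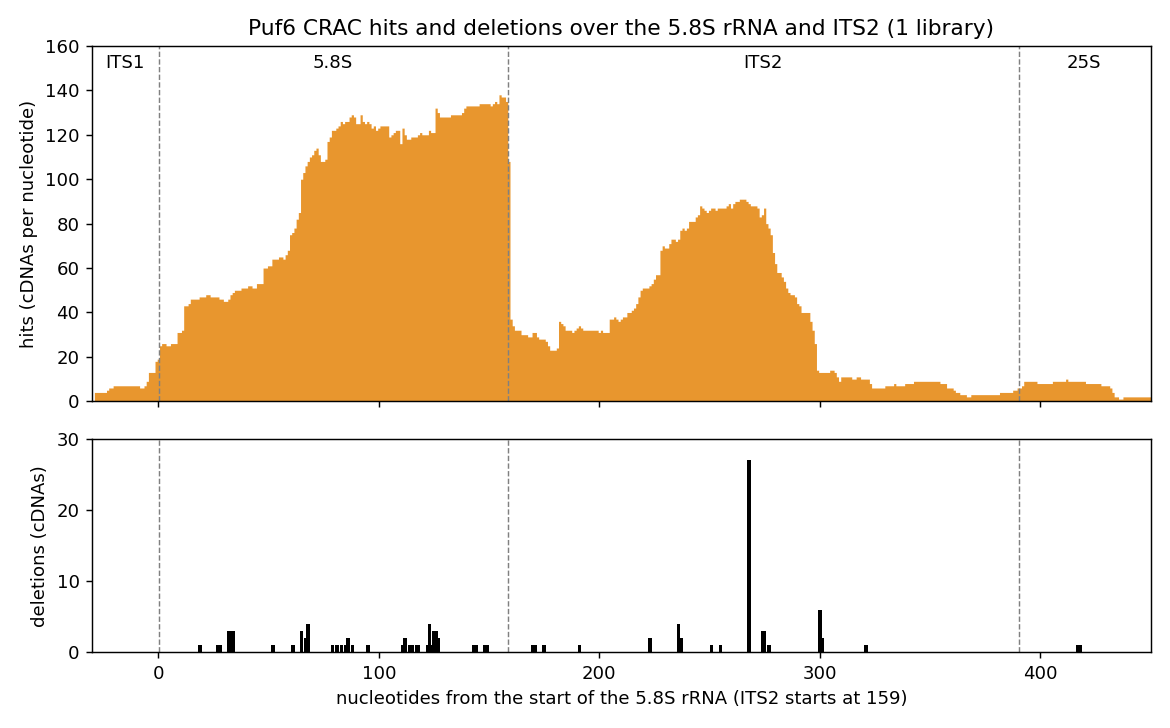
Hits per nucleotide (upper panel) and deletions per nucleotide (lower panel) against the distance from the first nucleotide of the 5.8S rRNA, in 1 library, with dashed lines at the borders between ITS1, 5.8S, ITS2 and 25S. Hits climb through the 5.8S to 138, drop just after its 3′ end, climb again in ITS2 to 91 and fall to 14 at ITS2 nucleotide 141, while 27 deletions stand at a single nucleotide of ITS2.

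Along the 5.8S the hits grew from the 5′ to the 3′ end. The median was 46 hits over nucleotides 1 to 40, 75.5 over 41 to 80, 123.5 over 81 to 120 and 132.5 over 121 to 158. The lowest value was 25 hits, at A1, C4 and U5, and the highest was 138 hits at A155. Over the last 38 nucleotides the hits stayed between 120 and 138. The 3′ part of the 5.8S, where the RNA meets ITS2, was thus covered almost evenly, and the 5′ part was covered by fewer cDNAs.

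In ITS2 the hits lay in the 5′ part. After 108 hits at C1 they were between 23 and 38 as far as nucleotide 53, and the stretch from C59 to U116 then held 53.5% of all ITS2 hits, with a median of 83.5 and a highest value of 91 at G106, U107 and G108. The first 140 nucleotides held 92.0% of the ITS2 hits. From G141 to A232 there were between 2 and 14 hits, with a median of 7, and the lowest value of 2 hits was at G209 and U210. The median up to U116 was 5.06 times that from A117 on.

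At the 5′ end of the 5.8S the hits rose in small steps that began within ITS1. There were 6 hits at A354 of ITS1, 13 at A357, 18 at A360 and 19 at A361, the last nucleotide before the 5.8S, and then 25 at A1. The ratio of A1 to A361 was 1.32 (95% interval 0.696 to 2.53), so this step alone was within counting error. At most 19 cDNAs can have spanned this border, the smaller of the 2 values. Yeast makes a short and a long 5.8S that differ by a few nucleotides at the 5′ end, and the annotated gene is the short one. The table gives no cDNA ends, so the share of each form was not measured.

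The 3′ end of the 5.8S was the sharpest edge in the 390 nucleotides, and it lay 1 nucleotide past the annotated border. U158, the last nucleotide of the 5.8S, had 135 hits, C1 of ITS2 had 108 and C2 of ITS2 had 37. C1 and C2 name bases of ITS2 by their position, and this C2 is not the cleavage site of Las1. The fall from C1 to C2, by 71 hits or 65.7%, was the largest between any neighbours here, and the fall from U158 to C1, by 27 hits or 20%, came next. The ratio at the annotated border was 0.80 (95% interval 0.615 to 1.04), which counting error covers, and the ratio from C1 to C2 was 0.343 (0.229 to 0.502), which it does not. Of the 135 cDNAs over U158, at most 37 can have run on to C2, a ratio of 0.274 (0.185 to 0.397). ITS2 opens with the bases CC, and whether the extra C belongs to the RNA ends or to their alignment was not tested.

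The border between ITS2 and the 25S was thinly covered. A232, the last nucleotide of ITS2, and G1 of the 25S each had 6 hits, a ratio of 1 (95% interval 0.267 to 3.74). At most 6 cDNAs can have spanned it. Over the first 60 nucleotides of the 25S there were 1 to 10 hits, with a median of 8. The separate 25S table, counted from the same library, had 7 hits at G1 and a median of 9 over the same nucleotides. Of the 3 borders, coverage dropped downstream only at the end of the 5.8S.

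**Figure D2:**
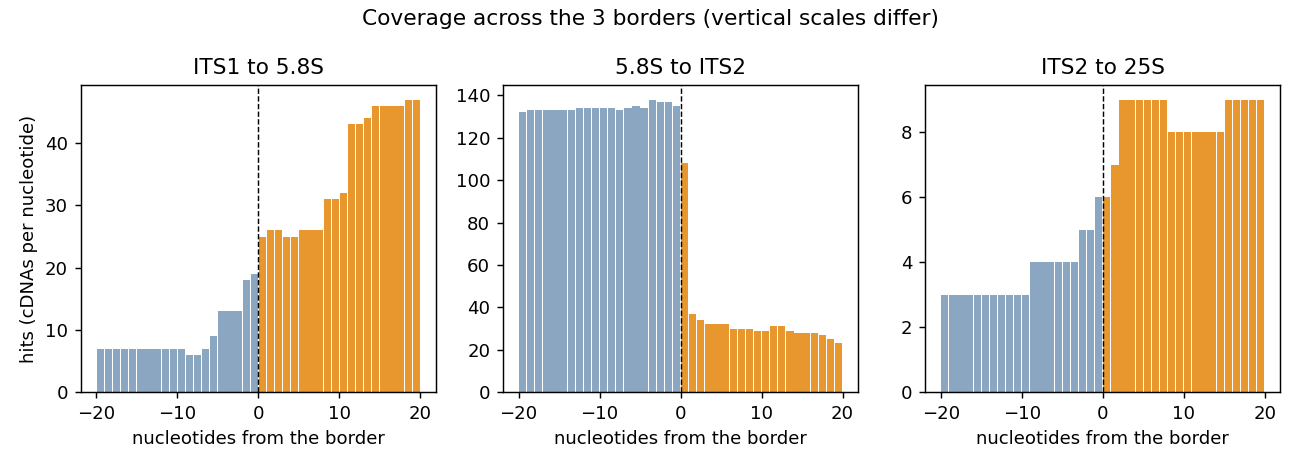
Hits per nucleotide over the 20 nucleotides before (blue) and after (orange) each border, with a vertical scale of its own for each panel. The bars rise gradually into the 5.8S, drop from 135 to 108 to 37 at its 3′ end, and stay at or below 9 around the ITS2 to 25S border.

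A second edge lay inside ITS2. The hits fell from 87 at A117 to 80 at U118, from 75 at A120 to 67 at U121, and then from 26 at G140 to 14 at G141. This last fall, by 12 hits or 46.2% of the value before it, was the 3rd largest after the pair at the end of the 5.8S. Between A117 and G141 the hits thus went from 87 to 14 over 24 nucleotides, more gradually than at the 5.8S end. The largest rises were from 85 to 100 hits at A65 of the 5.8S, from 24 to 36 at A24 of ITS2, and by 11 hits each at A12 of the 5.8S (32 to 43), A126 of the 5.8S (121 to 132) and A70 of ITS2 (57 to 68). All 5 rises were onto an A that follows C or U.

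Net rises fell on A in general. Summed over the 390 nucleotides, 151 of 275 rises in hits, or 54.9%, were onto A, which is 24.9% of the nucleotides, and 9.82% were onto C. The base before the rise was U in 34.5% and C in 33.8%. Elsewhere in the 35S sequence 54.6% of the net rises were onto A and 10.4% onto C, close to the values here. Of the net falls, 28.8% followed a C here and 15.6% elsewhere, and 71 of these 83 falls were the step after C1 of ITS2. A net step is starts minus ends of cDNAs, so these are not counts of ends, and no test was made.

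Deletions reached at most 4 at any nucleotide of the 5.8S, while the run U110 and U111 of ITS2 held 27. With 56 deletions against 14855 summed hits, the rate on the 5.8S was 0.377% (0.285 to 0.489%, an exact Clopper-Pearson 95% interval, as are those below). On ITS2 there were 57 deletions against 8348 hits, or 0.683% (0.518 to 0.884%). Without U110 and U111, ITS2 had 30 deletions in 8171 hits, or 0.367% (0.248 to 0.524%), close to the 5.8S. One cDNA covers 61.7 nucleotides of the table on average, so summed hits are not independent and these intervals are too narrow.

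Of the 7 comparisons of pooled rates between regions, 3 passed a two-sided Fisher's exact test after Benjamini-Hochberg adjustment over the 7. The 5.8S rate was 0.552 times that of ITS2 (adjusted p = 0.00492, Fisher's exact test) and 0.61 times that of the 25S (adjusted p = 0.000759, Fisher's exact test). The ITS2 rate was 3.28 times that of ITS1, which had 6 deletions in 2886 hits (adjusted p = 0.00492, Fisher's exact test). The 5.8S did not pass against the 18S (ratio 0.798, adjusted p = 0.262) or ITS1 (ratio 1.81, adjusted p = 0.262), nor ITS2 against the 18S (ratio 1.44, adjusted p = 0.0658) or the 25S (ratio 1.11, adjusted p = 0.436), all by Fisher's exact test. Without U110 and U111 of ITS2 the first ratio became 1.03 (adjusted p = 1, Fisher's exact test) and that of ITS2 to ITS1 became 1.77 (adjusted p = 0.314, Fisher's exact test). Both calls of ITS2 thus depended on U110 and U111, known from earlier results of these data, and are not an independent test of the regions. Without C2163 to A2262 and the last 100 nucleotides of the 25S the ratio of the 5.8S to the 25S became 1.24 (adjusted p = 0.212, Fisher's exact test). The stretches left out hold U2217 and U3351 of the 25S, with 417 and 47 deletions. The ITS2 to ITS1 call was also lost with at least 10 hits (ratio 3.02, adjusted p = 0.0608, Fisher's exact test).

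**Figure D3:**
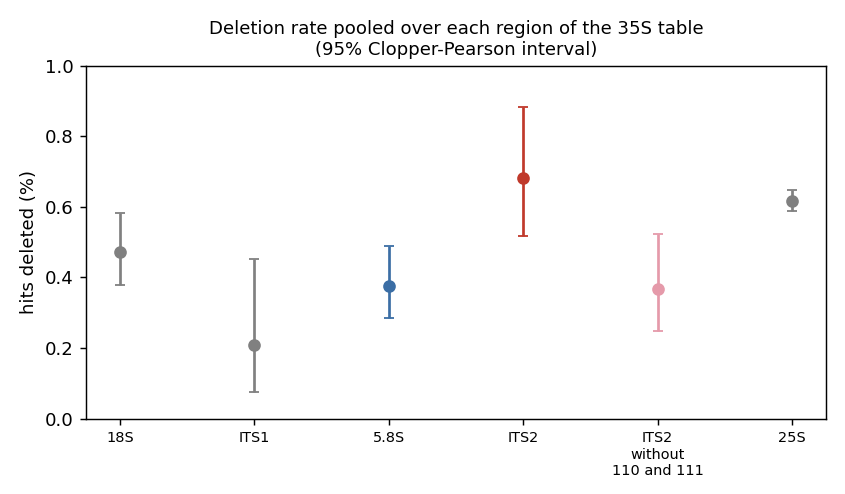
Deletions as a percentage of the summed hits of each region of the 35S table, with Clopper-Pearson 95% intervals, for 1 library. The 5.8S, at 0.377%, lies below ITS2, at 0.683%, and next to ITS2 without U110 and U111, at 0.367%.

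The regions also differ in depth, so nucleotides with 25 to 138 hits, the range of the 5.8S, were set side by side. The rate at that depth was 0.683% (0.501 to 0.910%) on the 18S, 0.261% (0.0539 to 0.762%) on ITS1, 0.377% on the 5.8S, 0.633% (0.467 to 0.838%) on ITS2 and 0.246% (0.187 to 0.318%) on the 25S. On the 18S, 27 of the 46 deletions were at U335, and on ITS2, 27 of 48 were at U110. Without the most deleted nucleotide of each region in this range, the rates were 0.286% (0.172 to 0.447%) on the 18S, 0.179% (0.0216 to 0.644%) on ITS1, 0.353% (0.263 to 0.462%) on the 5.8S, 0.280% (0.174 to 0.428%) on ITS2 and 0.230% (0.173 to 0.300%) on the 25S. The 5.8S then had the highest of the 5 values, but its interval overlaps those of the others, and no test of these values was made.

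A deletion was seen at 34 of the 158 nucleotides of the 5.8S, or 21.5%, and at 16 nucleotides of ITS2, or 6.90%, against 6.14% of all nucleotides of the 35S table. The share depends on depth. Among nucleotides with at least 50 hits, 28 of 124 on the 5.8S (22.6%) and 9 of 68 on ITS2 (13.2%) had a deletion, against 30.3% of all 680 such nucleotides. These 680 include nucleotides with up to 2214 hits, so depth differs there too. Among nucleotides with 25 to 138 hits, 34 of 158 on the 5.8S (21.5%) and 13 of 136 on ITS2 (9.56%) had a deletion, against 10.9% of all 985. The median depth of these was 118 hits on the 5.8S, 49.5 on ITS2 and 34 on the 25S, so no difference is read from the shares. At least 5% of the hits were deleted at 0 of the 124 on the 5.8S and at 2 of the 68 on ITS2, U78 and U110, against 1.32% of the 680. Under 50 hits, C32, A33 and U34 of the 5.8S also reached 5%, at 46, 48 and 49 hits. So did U142, U143 and U163 of ITS2, at 13, 13 and 10 hits.

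U110 carried 27 of the 57 deletions of ITS2, or 47.4%. The site was known from earlier results of these data, so its values are a description with no test. With 89 hits its rate was 30.3% (21 to 41%), the highest of the 680 nucleotides with at least 50 hits in the 35S table. The next were U335 of the 18S, at 28.1%, U2217 of the 25S, at 18.8%, and U3351 of the 25S, at 14.6%. The interval of U110 reaches over the value of U335. By number of deletions U110 was at rank 13 among all nucleotides of the table. Its surroundings, from nucleotide 100 to 120 of ITS2 at chrXII:455294-455314, are shown with the run U110 and U111 in capitals, to place the site.

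ITS2 100 to 120: cucugcgugcUUgagguauaa

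U110 is at position 455304 of chromosome XII. U111 had 0 deletions in 88 hits, and since a lost U of this pair can be written at either place, the 27 belong to the pair. From C109 back to C105 and from G112 to G115 there were 0 deletions, so from C105 to G115 all deletions were at this run. Downstream, U116 had 3 deletions in 84 hits and A117 had 3 in 87. U110 sits on the plateau of the hits, 2 nucleotides after the last of the 3 nucleotides with 91 hits, and upstream of the decline that ends at G141.

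The second most deleted nucleotide of the 390 was U142 of ITS2, just past the fall at G141. It had 6 deletions in 13 hits, or 46.2% (19.2 to 74.9%), and U143 had 2 in 13. Both belong to a run of 4 U. The sequence from nucleotide 131 to 153, at chrXII:455261-455283, is given with this run in capitals because the edge and the deletions meet there.

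ITS2 131 to 153: gucguuuuaggUUUUaccaacug

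The run UUUU at 135 to 138, on the other side of the edge, had 0 deletions at a mean of 39.0 hits. The 8 deletions of the downstream run were among 13 cDNAs, and if a cDNA lost 2 U it counts at both, so the number of cDNAs is between 6 and 8. This is the thinnest covered of the most deleted nucleotides, and it rests on few cDNAs.

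Deletions of ITS2 fell on U, and mostly on runs of it. U took 50 of the 57 deletions, or 87.7%, at 1.54% of its hits (1.14 to 2.02%), against 0.137% (0.0552 to 0.283%) at A, C and G together. Without U110 and U111, U still had 0.749% (0.475 to 1.12%). C had 0 deletions in 1356 hits, which allows up to 0.272%. The 19 runs of at least 2 U held 25% of the ITS2 nucleotides, 26.9% of the hits and 46 of the 57 deletions, or 80.7%. All 46 were written at the first or the second U of a run, and 42 at the first. In a run of 2 U no other place exists, and 27 of the 46 were in the pair U110 and U111.

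The longest run, UUUUUUUU at 78 to 85, had 4 deletions in 73 hits at U78 and 2 in 77 at U79, or 7.67% of the mean hits of the run. The run of 7 U at 163 to 169 had 1 deletion at a mean of 7.43 hits, and the run of 4 U at 65 to 68 had 2 at a mean of 54.3 hits. Of the 19 runs, 12 had no deletion. Except for the run from U142 to U145, the other runs of U were deleted at lower measured rates than U110 and U111, whatever their length. The 5 runs after U145, however, each had a mean below 10 hits.

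The 5.8S had rates closer together at A, C, G and U. Its deletions were at 0.423% of the hits of A (0.237 to 0.697%), 0.271% of C (0.124 to 0.513%), 0.385% of G (0.211 to 0.646%) and 0.414% of U (0.245 to 0.653%), and these intervals overlap. Its 11 runs of U held 7 of 56 deletions, or 12.5%, with 17.8% of the hits. The intervals for A, C and G together were 0.256 to 0.496% on the 5.8S and 0.0552 to 0.283% on ITS2. The difference between the regions was not tested. On the 5.8S, 45 of the 56 deletions stood in stretches of neighbouring deleted nucleotides. A cDNA that lacks several neighbours counts at each, so these rates cannot show whether U was preferred on the 5.8S.

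**Figure D4:**
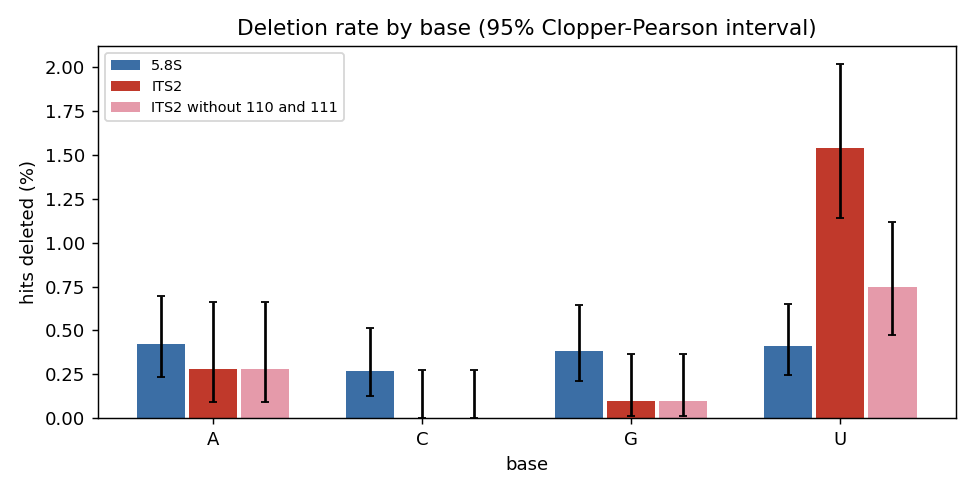
Deletions as a percentage of the hits at A, C, G and U on the 5.8S, on ITS2, and on ITS2 without U110 and U111, with Clopper-Pearson 95% intervals, for 1 library. On the 5.8S the 4 bases lie between 0.271 and 0.423%, and on ITS2 U stands at 1.54%, or 0.749% without that pair.

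No nucleotide of the 5.8S had more than 4 deletions. G68 had 4 in 108 hits, or 3.70% (1.02 to 9.21%), and G123 had 4 in 122, or 3.28% (0.90 to 8.18%). C32, A33 and U34 had 3 each, in 46, 48 and 49 hits, which at 6.52, 6.25 and 6.12% were the highest rates on the 5.8S. A65, U125 and A126 also had 3 each, in 100, 121 and 132 hits. The intervals of all 8 overlap, so no order among them can be given.

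Deletions on the 5.8S often stood at neighbouring nucleotides. Of 19 stretches of neighbouring deleted nucleotides, 10 were longer than 1 nucleotide, and these held 45 of the 56 deletions, or 80.4%. The longest ran from U122 to U127 with 14 deletions, and C32 to U34 had 9. On ITS2, 4 of 12 stretches were longer than 1 nucleotide and held 22 deletions, or 38.6%. The 27 deletions at U110 counted there as a stretch of 1 nucleotide, and without U110 and U111 ITS2 had 30 deletions in all. The share of nucleotides with a deletion was 21.5% on the 5.8S and 6.9% on ITS2. Whether deletions were more grouped than these shares give was not tested. A cDNA that lacks several nucleotides counts at each of them, so the number of deleted cDNAs was between the highest count of a stretch and its sum. Summing the highest counts gave 31 for the 5.8S and 49 for ITS2.

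**Figure D5:**
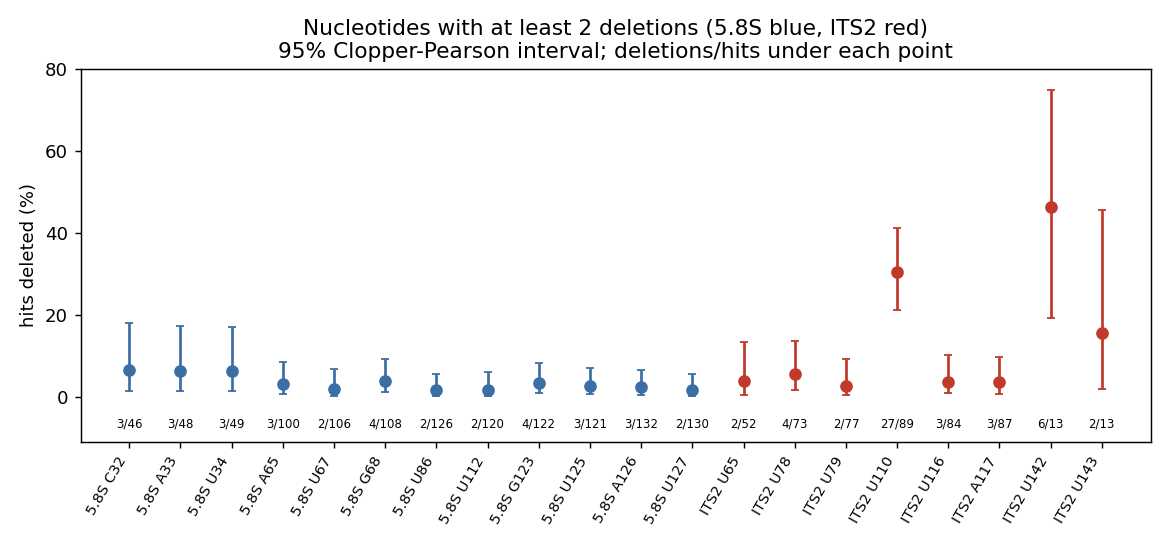
Percentage of hits deleted at each nucleotide of the 5.8S (blue) and ITS2 (red) with at least 2 deletions, in order along the RNA, with Clopper-Pearson 95% intervals and deletions over hits below each point. U110, at 30.3%, and U142, at 46.2% of 13 hits, lie above the others. The interval of U143, from 1.92 to 45.5%, spans the value of U110.

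Deletions were unevenly placed along ITS2, as were the hits. Up to nucleotide 58 there were 4 deletions in 1948 hits, or 0.205% (0.0560 to 0.525%). From C59 to U116 there were 40 in 4469 hits, or 0.895% (0.640 to 1.22%), and 27 of these were at U110. From A117 to U174 there were 13 in 1601 hits, or 0.812% (0.433 to 1.385%), and there were 0 in the remaining 58 nucleotides. The last stretch had 330 summed hits, so its 0 deletions allow up to 1.11% and do not show a lower rate.

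Neither of the elements known for PUF proteins occurs in the 390 nucleotides of the sense strand. UUGU, described for Puf6 on ASH1 mRNA, has 41 sites in the sequence of the 35S table and 0 here. Of all stretches of 390 nucleotides in that sequence, 86.7% hold at least 1. UGUA has 20 sites and 0 here, while 71.7% of such stretches hold at least 1. The stretches overlap, and the absence of these letters says nothing of what Puf6 can bind.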

How the data were processed

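Hits and deletions over the 5.8S and ITS2 were read from the 35S table of the Puf6-HTP CRAC library, and the first nucleotides of the 25S also from the 25S table. The authors sequenced 50 bp paired reads, aligned them to an R64 build with NovoAlign 2.07 and made the pileups with pyCRAC 1.42. The deposited counts are cDNAs covering, or deleted at, each nucleotide, not scaled to depth. Per the file headers the library held 1316148 cDNAs with 241334 mapped, an RNA's count ended at 5000 cDNAs, and deletions were the only mutations recorded. Both tables reached that limit, and the sources used here give neither how those cDNAs were chosen nor how reads were placed among rDNA copies. Hits limit the precision, from 2 to 138 per nucleotide.

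Nucleotides were matched to R64, where the 18S, 5.8S, ITS2 and 25S of the first copy were identical to the table. Rates are deletions as a percentage of hits, and their 95% intervals are exact (Clopper-Pearson). Intervals of hit ratios treat the pair of values as a binomial split, although neighbouring nucleotides share cDNAs. Pooled rates were compared by Fisher's exact test, which was tested on simulated data with independent hits. The simulation cannot show how the test behaves where hits share cDNAs. Fisher's exact test treats hits as independent, so its p overstates the precision, and it holds no spread between replicates. PCR copies would narrow all intervals further. Named are the border nucleotides, the highest and lowest hits, the 10 nucleotides with the most deletions and those tied with them, the 3 largest rises and falls, the run at ITS2 110 and 111, UUGU and UGUA. G106 to G108 of ITS2, A70 of ITS2, the falls after A117 and A120, the steps in ITS1, the other U runs and the sites compared with U110 were named after their values were seen, and the analyses of steps by base, U runs, deletion stretches and matched depth were chosen then too. Members and lists were chosen with earlier results of these data known. The work was done in Python 3.11.15 with scipy 1.17.1, pandas 2.3.3 and numpy 2.4.6, and matplotlib 3.10.9 drew the figures.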

Additional observations from a re-analysis of the deposited data

How the results depend on the processing

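Leaving out a replicate was not possible, since the tables hold 1 library, and no paired analysis was possible because both libraries share a single condition. Values are ratios of deletion rates unless named otherwise, and the cause of each change was not tested except where the alternative removes the deletions themselves. Without U110 and U111, the ratio of the 5.8S to ITS2 turned to 1.03, those of ITS2 to the 25S and the 18S turned to 0.595, which passed in this direction, and 0.777, and that of ITS2 to ITS1, at 1.77, lost its significance. Without C2163 to A2262 and the last 100 nucleotides of the 25S, the 5.8S to 25S ratio turned to 1.24 and the ITS2 to 25S ratio, 2.25, passed the threshold. This alternative took U2217 and U3351 from the 25S but kept U110 in ITS2. Without the most deleted nucleotide of each region, 5.8S to ITS2 (0.971), 5.8S to 25S (0.761) and ITS2 to ITS1 (2.09) no longer passed, and 5.8S to 18S (1.08) and ITS2 to 25S (0.784) turned. Without nucleotides within 30 of a border, 5.8S to ITS2 (0.679) and 5.8S to 25S (0.817) no longer passed, ITS2 to 18S (1.56) did and 5.8S to 18S turned to 1.06. With at least 10 hits, ITS2 to ITS1 (3.02) no longer passed. With summed hits divided by the mean cDNA length, ITS2 to 18S (1.45) passed. With neighbouring deletions counted once, an alternative chosen after seeing the data, 5.8S to 18S (0.512) and ITS2 to 25S (1.84) passed.

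The ratio of hits across the 5.8S to ITS2 border was 0.80 for 1 nucleotide on each side and 0.357, 0.292 and 0.251 for means of 5, 10 and 20, and 0.343 with the border moved 1 nucleotide into ITS2, also chosen after seeing the data. The ITS1 to 5.8S ratio became 3.91 with means of 20. With C109 and U110 pooled the rate was 15.1% in place of 30.3%, since the hits double and the deletions do not. The other 34 alternative values kept their direction and side of the threshold or, for border ratios, the U110 rate and hits per nucleotide, stayed within the counting interval. Depth limits what can be said of ITS2 from G141 on, where the median was 7 hits.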
